A study of Arabidopsis thaliana with 18 samples.

Results

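Among the transcripts that were lower in warm-grown Arabidopsis thaliana seedlings were those of 6 genes of the cell wall, the cytoskeleton and growth: HRGP1 (AT3G54590), TBL39 (AT2G42570), TUB1 (AT1G75780), Prx37 (AT4G08770), SBT4.12 (AT5G59090) and ATLP-1 (AT1G18250). They are 6 of the 13333 genes named on the array, each read by 1 probe set out of 22746 tested. They were picked by gene symbol from an earlier analysis of the same arrays, because their signal was lower at 23 °C than at 16 °C. The temperature differences of these genes are therefore given as a description, with no p-value. The comparisons between genotypes were tested.

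The plant cell wall is built from cellulose microfibrils, acetylated and methylated matrix polysaccharides and structural proteins, and it must loosen and then stiffen for a cell to grow. Hydroxyproline-rich glycoproteins such as extensins are structural wall proteins that class III peroxidases cross-link with hydrogen peroxide. Beta-tubulin pairs with alpha-tubulin in cortical microtubules, which guide the laying down of cellulose. Subtilases are secreted serine proteases that process or degrade extracellular proteins, and thaumatin-like proteins share a fold with a sweet-tasting fruit protein and with pathogenesis-related proteins.

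The seedlings were 10 days old and came from 3 genotypes: Columbia wild type (WT), the elf3-7 mutant of the clock gene ELF3 and the tfl1-1 mutant of the floral repressor gene TFL1. After 3 days of stratification at 4 °C, each genotype was grown on agar with MS salts at either 16 °C or 23 °C, in continuous cool-white fluorescent light of 80 µmol per second and square metre. Every combination of genotype and temperature was sampled in 3 biological replicates with letters A, B and C, each with its own RNA preparation and array, which gave 6 groups and 18 arrays. RNA of seedlings was labelled, so a difference in signal can come from fewer cells of a type or from less RNA per cell, and these cannot be told apart. The probe sets of ELF3 and TFL1 were not named here, so the genotype labels were not checked against the mutated genes.

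Values are log2 signals after robust multi-array averaging (RMA), in which 1 unit is a factor of 2. Array medians lay between 5.49 and 5.62, and arrays have no read depth, so the number of arrays limits the precision. The arrays of replicate C stood apart from those of A and B. The 24 probe sets for spiked Bacillus transcripts averaged 4.81 to 6.67 on the 6 replicate C arrays and 3.14 to 3.28 on the other 12. The excess of 3′ over 5′ signal in the actin and GAPDH control probe sets, which rises when RNA is degraded or labelling is short, was 1.78 to 2.74 in replicate C and 1.11 to 1.63 in A and B. None of the 6 genes passed the test for a difference between replicate C and the other arrays (limma, adjusted p from 0.337 to 0.946, 0 of 6 also at an unadjusted p under 0.05). Of all probe sets 26.3% passed, and 36.7% had an unadjusted p under 0.05.

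HRGP1 encodes a hydroxyproline-rich glycoprotein. In WT its signal was 7.40, 5.63 and 6.23 at 16 °C in replicates A, B and C, and 4.21, 4.35 and 4.74 at 23 °C. In elf3-7 it was 6.70, 7.71 and 5.76 at 16 °C and 4.74, 5.58 and 4.38 at 23 °C. In tfl1-1 it was 5.70, 5.74 and 5.89 at 16 °C and 4.58, 4.32 and 4.82 at 23 °C. In each genotype all 3 warm arrays lay below all 3 cool arrays, and the cool arrays of WT and elf3-7 were widely spread while those of tfl1-1 were close together. The difference, 23 °C minus 16 °C, was -1.99 in WT, -1.82 in elf3-7 and -1.20 in tfl1-1 (± 0.46 SE each, 3 arrays per group). The probe set carries the suffix x_at, which marks probes that can also match other transcripts, so its signal may not come from HRGP1 alone.

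TBL39 belongs to the trichome birefringence-like family, whose studied members add acetyl groups to wall polysaccharides. WT arrays read 7.21, 7.43 and 7.54 at 16 °C and 4.81, 5.38 and 5.71 at 23 °C. The elf3-7 arrays read 7.14, 7.38 and 7.40 at 16 °C and 6.06, 6.61 and 5.6 at 23 °C. The tfl1-1 arrays read 7.26, 7.27 and 7.21 at 16 °C and 4.41, 4.73 and 6.15 at 23 °C. The 9 cool arrays lay within a narrow band in all genotypes, the 9 warm arrays all lay below it, and replicate C was the highest warm array of tfl1-1. The temperature difference was -2.09 in WT, -1.21 in elf3-7 and -2.15 in tfl1-1 (± 0.36 SE).

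TUB1 encodes a beta-tubulin. Its WT signal was 7.79, 7.61 and 7.43 at 16 °C and 4.50, 5.73 and 5.46 at 23 °C. In elf3-7 the signal was 7.56, 8.0 and 6.87 at 16 °C and 6.20, 7.29 and 4.64 at 23 °C. In tfl1-1 the signal was 7.48, 7.39 and 7.30 at 16 °C and 4.23, 4.97 and 6.08 at 23 °C. Warm and cool arrays were apart in WT and tfl1-1 but overlapped in elf3-7, where the warm array of replicate B exceeded the cool array of replicate C. The temperature difference was -2.38 in WT, -1.43 in elf3-7 and -2.30 in tfl1-1 (± 0.56 SE).

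Prx37 encodes peroxidase 37, a class III peroxidase. WT seedlings gave 4.94, 4.67 and 5.25 at 16 °C and 2.97, 3.40 and 3.21 at 23 °C. The elf3-7 seedlings gave 5.36, 5.91 and 5.88 at 16 °C and 3.5, 4.30 and 3.41 at 23 °C. The tfl1-1 seedlings gave 4.58, 4.54 and 4.48 at 16 °C and 3.20, 2.99 and 3.64 at 23 °C. Warm arrays lay below cool ones in each genotype, and the cool arrays fell in the order elf3-7, WT, tfl1-1 with no overlap between them. The temperature difference was -1.76 in WT, -1.98 in elf3-7 and -1.26 in tfl1-1 (± 0.24 SE). On 8 of the 9 warm arrays Prx37 lay below 3.99, the 95th percentile of the single Bacillus control values in replicates A and B, which leaves the sizes of its differences uncertain.

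SBT4.12 encodes a subtilase. Its WT values were 8.05, 7.76 and 7.88 at 16 °C and 5.07, 4.58 and 4.48 at 23 °C. Values in elf3-7 were 7.67, 8.09 and 7.21 at 16 °C and 5.98, 6.61 and 4.39 at 23 °C. Values in tfl1-1 were 7.38, 8.0 and 7.91 at 16 °C and 3.82, 4.10 and 6.97 at 23 °C. The cool arrays were alike in the 3 genotypes, and every warm array was below every cool array of its genotype. In both mutants 1 warm array of replicate C stood away from the other two, below them in elf3-7 and above them in tfl1-1. The temperature difference was -3.19 in WT, -2.0 in elf3-7 and -2.80 in tfl1-1 (± 0.66 SE), and 1 of 9 warm arrays lay below the Bacillus level of 3.99.

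ATLP-1 encodes a thaumatin-like protein. WT arrays stood at 8.85, 9.38 and 8.89 at 16 °C and at 5.98, 7.35 and 7.55 at 23 °C. The elf3-7 arrays stood at 9.24, 8.99 and 9.30 at 16 °C and at 7.96, 8.32 and 7.12 at 23 °C. The tfl1-1 arrays stood at 8.36, 8.19 and 7.91 at 16 °C and at 4.96, 5.46 and 7.10 at 23 °C. Warm arrays were below cool arrays within each genotype, and the cool arrays of tfl1-1 were below those of WT and elf3-7. The temperature difference was -2.08 in WT, -1.38 in elf3-7 and -2.32 in tfl1-1 (± 0.48 SE).

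**Figure D1:**
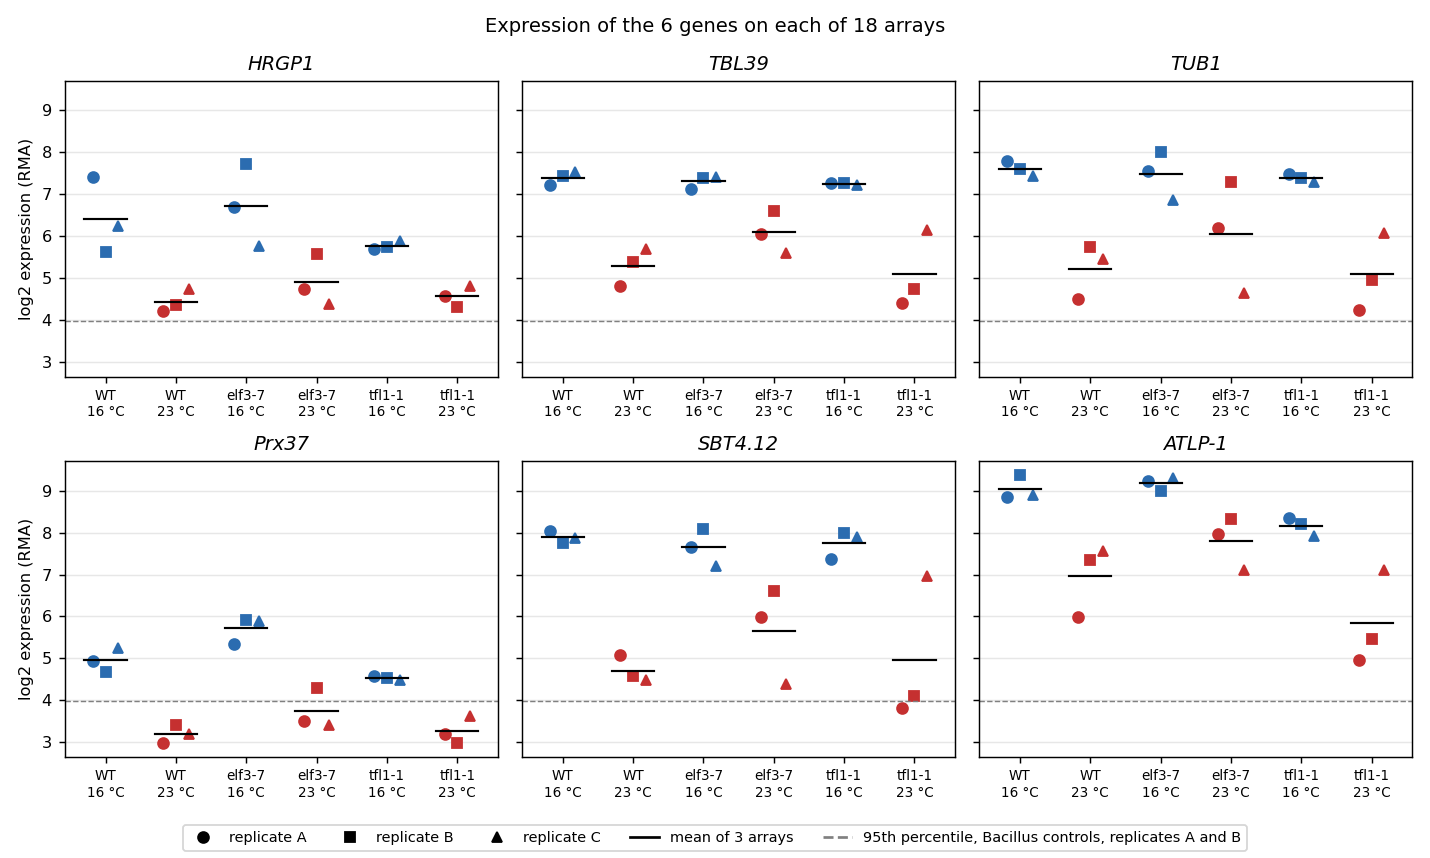
Log2 RMA signal of each gene (vertical axis) on each array, by genotype and temperature, with the replicate letter as the symbol, blue for 16 °C, red for 23 °C and a bar at the mean of 3 arrays. The dashed line is the 95th percentile of Bacillus control values in replicates A and B (3.99), and 8 of 9 warm Prx37 arrays lie under it.

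Side by side, the median temperature difference of the 6 genes was -2.09 in WT, -1.63 in elf3-7 and -2.22 in tfl1-1, where the median of all probe sets was 0.05, 0.03 and 0.04. Warm and cool arrays did not overlap for 6 of 6 genes in WT, 5 of 6 in elf3-7 and 6 of 6 in tfl1-1. Over all probe sets, every warm array lay below every cool array for 12.5%, 12.5% and 13.4%. These counts follow from how the genes were picked, and nothing is read from them. Pairing arrays by replicate letter gave 54 differences, all below 0, from -3.89 for SBT4.12 in tfl1-1 replicate B to -0.67 for ATLP-1 in elf3-7 replicate B. This count too follows from how the genes were picked, and in tfl1-1 the letters did not pair the arrays. Ranked from the lowest difference among 22746 probe sets, SBT4.12 was number 12 in WT, 45 in elf3-7 and 34 in tfl1-1. TBL39 ranked 100 in WT, 301 in elf3-7 and 105 in tfl1-1. HRGP1 ranked 117 in WT, 75 in elf3-7 and 536 in tfl1-1. Among the 6, SBT4.12 had the lowest difference in each genotype, and the order of the other 5 changed between genotypes.

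**Figure D2:**
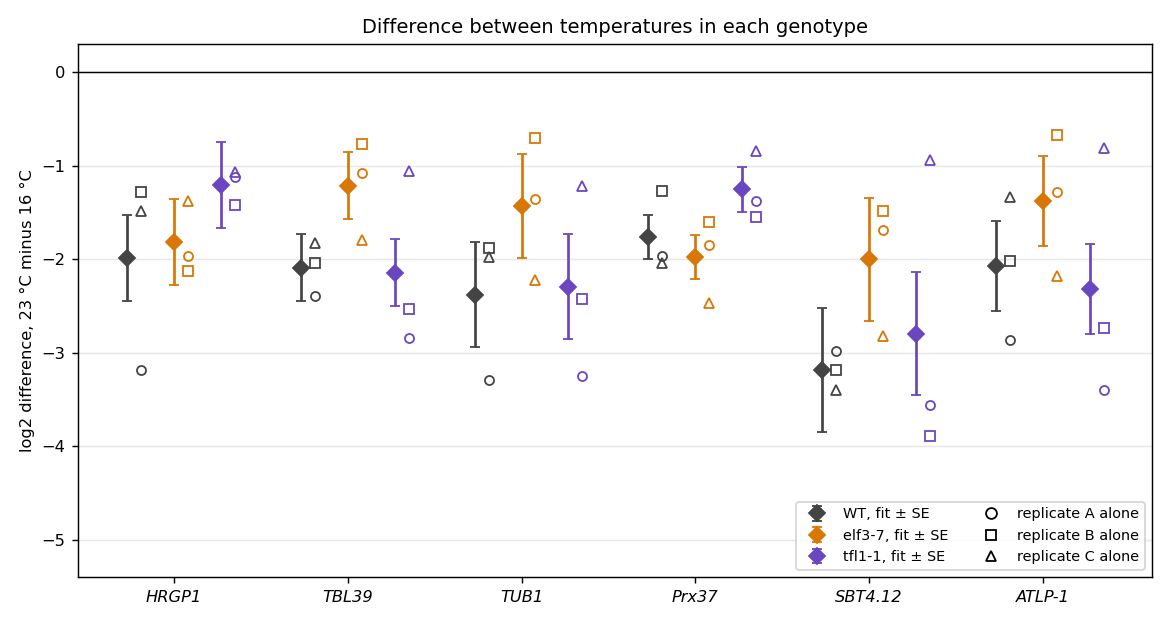
Log2 difference, 23 °C minus 16 °C (vertical axis), of each gene in WT, elf3-7 and tfl1-1, as the fitted value with its SE (filled) and for each pair of arrays with the same replicate letter (open). All open points lie below 0, and replicate C of tfl1-1 is the nearest to 0 within its genotype for all 6 genes.

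The difference between genotypes in the temperature response is built from the contrasts that picked the genes, so it too is descriptive. In elf3-7 minus WT it was 1.19 ± 0.93 SE for SBT4.12, 0.95 ± 0.79 for TUB1, 0.88 ± 0.50 for TBL39, 0.70 ± 0.68 for ATLP-1, 0.16 ± 0.65 for HRGP1 and -0.22 ± 0.34 for Prx37. Positive values mean a smaller drop in elf3-7, and each 95% interval of the fit held 0. In tfl1-1 minus WT the values ran from -0.24 ± 0.68 for ATLP-1 to 0.78 ± 0.65 for HRGP1, and each interval again held 0. Across the array, limma called 0 of 22746 probe sets for either response difference, with 542 and 821 at an unadjusted p under 0.05.

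Whether the mutants differ from WT in the level of these genes was tested first on the mean of both temperatures, a comparison that is independent of the temperature contrasts. In elf3-7 all 6 genes were above WT in this mean, by 0.34 to 0.65, and 0 of 6 passed the test (limma, adjusted p under 0.05), with 1 of 6 at an unadjusted p under 0.05. Of all probe sets 0.343% passed, and 10.1% had an unadjusted p under 0.05. In this mean 48.8% of all probe sets were below WT. The 15 pairs of the 6 genes had a median correlation of 0.63 after subtraction of the group means. Since they vary together, nothing is read from their shared direction. Prx37, the peroxidase, had the largest difference of the 6, 0.65 ± 0.17 SE or 1.57-fold higher (95% interval 0.29 to 1.01, limma adjusted p = 0.136). The other 5 had adjusted p-values from 0.689 to 0.863. The median difference was 0.37. It was 0.13, with 4 of 6 above WT, without replicate B in any group, and 0.75 without replicate C. Without the warm elf3-7 array of replicate B it was 0.22, and without that of replicate C 0.66.

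In tfl1-1, 57.5% of all probe sets were below WT in the mean of both temperatures, and so were 5 of 6 genes. Of them 0 of 6 passed (limma), with 1 of 6 at an unadjusted p under 0.05, against 0.11% and 13% of all probe sets. ATLP-1, the thaumatin-like gene, was 2.01-fold lower (log2 difference -1.01 ± 0.34 SE, 95% interval -1.73 to -0.28, limma adjusted p = 0.275). The other 5 lay between -0.25 ± 0.33 for HRGP1 and 0.06 ± 0.47 for SBT4.12. The call on ATLP-1 turned on 1 array. Without the warm tfl1-1 array of replicate C the difference was -1.32 and passed (limma adjusted p = 0.0150), and it passed with array weights as well (-1.32, adjusted p = 0.00337). Calls over all 22746 probe sets rose too, from 25 to 3518 with the weights and to 1310 without that array. That array had the highest 3′ over 5′ excess of the 18, 2.74, and the part of RNA quality in the result was not tested. Without replicate C in any group the difference was -1.15 and did not pass (adjusted p = 0.0764).

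The comparisons at a single temperature share arrays with those that picked the genes. That choice can shift their directions and p-values, so nothing is read from a direction shared by the genes. At 16 °C, 0 of 6 genes passed between elf3-7 and WT (limma, 1 of 6 at an unadjusted p under 0.05), against 0.268% of all probe sets (6.8% unadjusted). Prx37 was 0.76 ± 0.24 SE higher in elf3-7 (1.69-fold, limma adjusted p = 0.382), and the 3 arrays of each group did not overlap. The other 5 lay between -0.24 ± 0.66 for SBT4.12 and 0.30 ± 0.46 for HRGP1. Between tfl1-1 and WT at 16 °C all 6 had lower means, with differences from -0.89 to -0.13. Of them 0 of 6 passed (limma, 0 of 6 at an unadjusted p under 0.05), with 0% of all probe sets called (7.55% unadjusted). ATLP-1 had the largest of these differences, -0.89 ± 0.48 (95% interval -1.92 to 0.14, limma adjusted p = 0.703).

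At 23 °C, on arrays that also served to pick the genes, all 6 were higher in elf3-7 than in WT. Of them 0 of 6 passed (limma, 2 of 6 at an unadjusted p under 0.05), against 0.0308% of all probe sets (5.17% unadjusted). The differences were 0.95 ± 0.66 SE for SBT4.12, 0.84 ± 0.48 for ATLP-1, 0.81 ± 0.56 for TUB1, 0.79 ± 0.36 for TBL39, 0.54 ± 0.24 for Prx37 and 0.47 ± 0.46 for HRGP1. Their median was 0.80, where the median of all probe sets was -0.003. The size depended on single arrays: the median was 0.37 without the warm elf3-7 array of replicate B, 0.44 without the warm WT array of replicate A and 1.11 without the warm elf3-7 array of replicate C. Without a letter in every group it was 0.49 for A, 0.42 for B and 1.35 for C. All 6 were above 0 each time. These fits keep arrays that served to pick the genes, so nothing is read from that direction. In tfl1-1 at 23 °C, 0 of 6 genes passed against WT (limma, 1 of 6 at an unadjusted p under 0.05), against 0.0352% of all probe sets (8.46% unadjusted). ATLP-1 was 2.18-fold lower (-1.12 ± 0.48, limma adjusted p = 0.570). Without replicate C of that group its difference was -1.75 and passed (limma adjusted p = 0.0339), as it did with array weights (-1.74, adjusted p = 0.0101). Calls over all probe sets rose too, from 8 to 745 without that array and to 1593 with the weights. In the full fit the other 5 genes lay between -0.20 ± 0.36 for TBL39 and 0.25 ± 0.66 for SBT4.12.

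**Figure D3:**
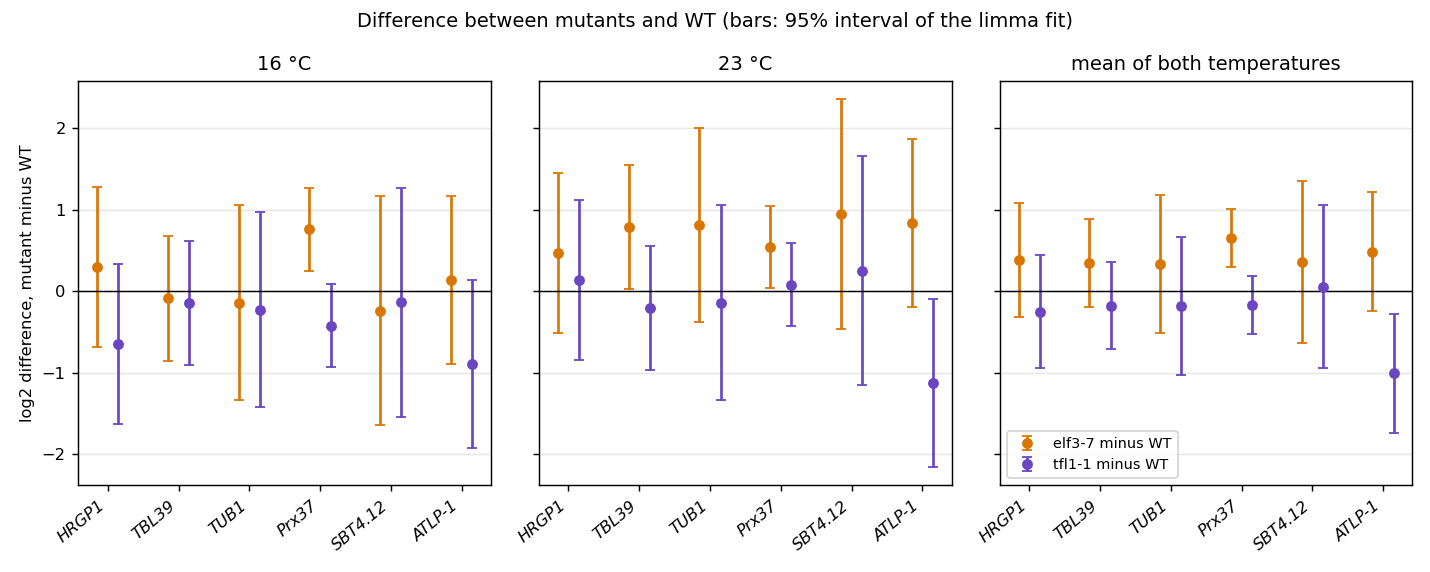
Log2 difference, mutant minus WT (vertical axis), of each gene at 16 °C, at 23 °C and in the mean of both, with the 95% interval of the limma fit. Intervals that leave out 0 belong to Prx37 and TBL39 in elf3-7 and to ATLP-1 in tfl1-1, and no value passed after adjustment over 22746 probe sets.

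Replicates of a group spread more widely at 23 °C than at 16 °C for 5 of the genes, and less widely for HRGP1. The within-group SD, pooled over genotypes, was 0.66 at 23 °C and 0.13 at 16 °C for TBL39, 1.01 and 0.35 for TUB1, 1.22 and 0.33 for SBT4.12, 0.89 and 0.23 for ATLP-1, and 0.36 and 0.25 for Prx37. For HRGP1 it was 0.42 and 0.77. The median over all probe sets was 0.22 and 0.17. On 4 of the warm arrays the genes deviated to the same side. All 6 genes were above their group mean on elf3-7 replicate B (median deviation 0.62) and tfl1-1 replicate C (1.02), and all 6 were below it on elf3-7 replicate C (-0.60) and tfl1-1 replicate B (-0.33).

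After subtraction of the group means, the 15 pairs of genes had correlations of 0.60 to 0.97 over the 9 warm arrays, with a median of 0.78. Over the 9 cool arrays the range was -0.72 to 0.80 and the median -0.15. TBL39 and ATLP-1 were the closest pair on the warm arrays (r = 0.97), and HRGP1 and SBT4.12 the least close (0.60). These correlations are descriptive, since the genes share each array with its RNA and labelling. Replicate C was the low warm array of elf3-7, with a 3′ over 5′ excess of 2.55, and the high one of tfl1-1, with 2.74, the top values of the 18 arrays. Both extremes thus had high control signals but opposite deviations, and the part of RNA quality in them was not tested.

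**Figure D4:**
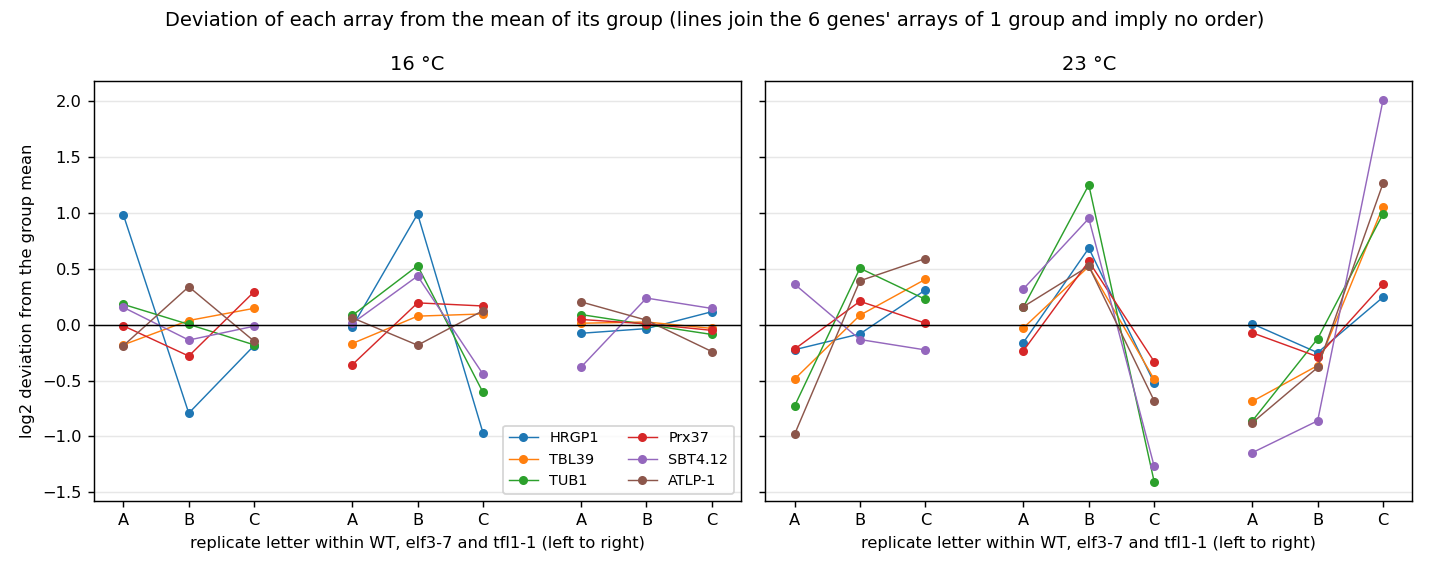
Deviation of each array from the mean of its group (vertical axis, log2) for the 6 genes, by replicate letter within WT, elf3-7 and tfl1-1 from left to right, at 16 °C and at 23 °C. At 23 °C all 6 genes lie above 0 on elf3-7 replicate B and tfl1-1 replicate C and below 0 on elf3-7 replicate C and tfl1-1 replicate B, while at 16 °C HRGP1 has the widest range.

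The spread of HRGP1 at 16 °C went along with 2 expansins of root hairs, wall-loosening proteins, with r = 0.93 for EXPA7 and 0.90 for EXPA18 over the 9 cool arrays after subtraction of the group means. TUB1 gave 0.83 and 0.95, SBT4.12 0.56 and 0.68, and TBL39 -0.46 and -0.37. Of 15 root markers 3 were measured. Their summed log2 signal ran from 20.17 to 25.61 over the cool arrays and from 18.32 to 22.44 over the warm ones. The temperature differences of EXPA18 were -1.46 in WT, -1.41 in elf3-7 and -1.57 in tfl1-1, and those of EXPA7 were -0.98, -0.82 and -1.09. On the warm arrays EXPA7 lay below the Bacillus level of 3.99 except in elf3-7 replicate B (5.10). EXPA18 did so except in elf3-7 replicates A (4.22) and B (5.26). On the cool arrays EXPA7 also lay below that level in WT replicates B and C (3.77 and 3.91). The sizes of these differences, their tests and the summed signal on the warm arrays are therefore uncertain. The beta-glucosidase PYK10, an abundant root protein, differed by -0.54, -0.19 and -0.52. No root marker passed in any genotype (limma, adjusted p from 0.0907 to 0.723), against 6.81%, 4.87% and 9.16% of all probe sets. In tfl1-1, 2 of the 3 passed as lower when replicate C was left out of all groups, while 0 passed in WT or elf3-7.

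Of 10 markers of dividing cells, the mitotic kinases AUR1 and AUR2 were measured, and both fell at 23 °C in part of the genotypes. The marker lists were chosen with earlier results of these data known, so the p-values of their genes are no separate check. AUR1 fell in WT (-1.59 ± 0.40 SE, limma adjusted p = 0.0292) and tfl1-1 (-1.46 ± 0.40, adjusted p = 0.0339), and differed by -1.16 ± 0.40 in elf3-7 (adjusted p = 0.0994). A further fit held a block for the replicate letter, with the same shift per letter in all 6 groups. This included tfl1-1, where the letters did not pair the arrays across temperatures. With the block AUR1 passed in elf3-7 as well (limma adjusted p = 0.0375). AUR2 fell in WT (-1.44 ± 0.29, adjusted p = 0.0120) and elf3-7 (-1.14 ± 0.29, adjusted p = 0.0395), and differed by -0.95 ± 0.29 in tfl1-1 (adjusted p = 0.0547). Their summed signal was 13.81 to 16.09 over the cool arrays and 10.76 to 13.57 over the warm ones. After subtraction of the group means, AUR1 followed ATLP-1 (r = 0.90) and TBL39 (0.86) over the 18 arrays. With HRGP1 it gave 0.02, which pooled opposite values of -0.92 over the cool arrays and 0.64 over the warm ones. Over the cool arrays AUR1 also gave -0.89 with TUB1 and -0.83 with SBT4.12. With Prx37, TBL39 and ATLP-1 the cool arrays gave -0.01, 0.40 and 0.49. Over the warm arrays the values ran from 0.53 with SBT4.12 to 0.94 with ATLP-1. The 2 leaf markers measured of 10, RCA and LHCB4.2, had summed signals of 25.59 to 26.48 on the cool arrays and 25.84 to 26.49 on the warm ones, and neither passed the test, although 1 passed as lower in WT without replicate C. Both kinases passed in WT and tfl1-1 without replicate C, and neither did in elf3-7. The part of organ or cell make-up in the temperature differences was not tested.

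The loci on either side of each gene in the RefSeq annotation were read as well. Of these 12 loci, 7 had a probe set of their own. AT4G08780, next to Prx37, fell at 23 °C in each genotype, with log2 differences of -1.84 ± 0.28 SE in WT (limma adjusted p = 0.00438), -1.98 ± 0.28 in elf3-7 (adjusted p = 0.00184) and -1.42 ± 0.28 in tfl1-1 (adjusted p = 0.00876). Its elf3-7 minus WT difference in the mean of both temperatures was 0.13 ± 0.20 (adjusted p = 0.890), beside 0.65 ± 0.17 for Prx37. AT3G54580, next to HRGP1, differed by -0.30, -0.62 and -0.10 with no call, although its cool arrays followed HRGP1 (r = 0.98 over 9 arrays after subtraction of the group means). AT2G42560, next to TBL39, was higher in the warm, by 0.53 and 0.50 in WT and elf3-7, which did not pass, and by 0.65 ± 0.17 in tfl1-1, which passed (limma adjusted p = 0.0292). The other 4 (AT1G75770, AT4G08760, AT5G59070 and AT5G59100) differed by -0.21 to 0.28, and none passed. Of these, AT4G08760, AT5G59070 and AT5G59100 lay below the Bacillus level of 3.99 on every array (highest 3.24, 3.77 and 3.56). A change in these genes may therefore have gone unseen. AT4G08780 lay below that level on every warm array except elf3-7 replicate B (4.03), which leaves the sizes of its differences uncertain. The warm means of AT3G54580 (3.87, 3.89 and 3.71) lay below that level too.

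Most of the measured relatives listed by symbol did not pass the test in either direction. Among probe sets in general, 3.98% passed as lower and 2.83% as higher in WT, 2.32% and 2.55% in elf3-7, and 5.18% and 3.98% in tfl1-1. Of the 6 other tubulins measured, 0 passed in any genotype (limma), and 2 in WT, 1 in elf3-7 and 3 in tfl1-1 had an unadjusted p under 0.05. So did 22.6%, 22% and 25.2% of all probe sets. TUB7 was closest to TUB1 in direction, at -0.85 in WT, -0.47 in elf3-7 and -0.87 in tfl1-1, and the alpha-tubulin TUA1 differed by 1.13, 0.97 and 0.66. With that block TUA1 passed as higher in WT (limma adjusted p = 0.0148) and elf3-7 (adjusted p = 0.0302), opposite in sign to TUB1. Among 22 other TBL genes, 3 fell and 0 rose in each genotype. TBL41 had differences of -0.73, -0.80 and -0.71 and TBL35 of -0.64, -0.45 and -0.41 in WT, elf3-7 and tfl1-1, and the third was TBL30 in WT (-0.76), TBL15 in elf3-7 (-0.75) and TBL45 in tfl1-1 (-1.0). With the block, 4 fell and 1 rose in WT and 5 fell and 1 rose in elf3-7, TBL25 being the one that rose (0.84 and 0.93). The family median was -0.13, -0.11 and -0.20.

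HRGP2 (AT5G19800), the 1 other gene measured in the list of extensins and proline-rich proteins, differed by -1.02 in WT, -1.06 in elf3-7 and -1.19 in tfl1-1 and did not pass (limma adjusted p = 0.126, 0.119 and 0.0648). It was also among the genes most like HRGP1 over the 18 arrays (r = 0.94). The symbol list of class III peroxidases held 6 other measured genes. Of these PRX72 (AT5G66390) fell in WT (-2.33 ± 0.65, limma adjusted p = 0.0466) and tfl1-1 (-2.84 ± 0.65, adjusted p = 0.0171). It differed by -1.60 in elf3-7 (adjusted p = 0.163), and 0 of the other 5 passed. The symbol lists held none of the adjacent loci, so AT4G08780, which fell in each genotype, is not counted in them. Of 9 others in the subtilase list 1 passed, SBT1.3 in tfl1-1 (-1.24, limma adjusted p = 0.0130), where SBT4.12 differed by -2.80. With the block SBT1.3 passed in WT as well (-0.89, adjusted p = 0.0150). SBT4.13, the measured subtilase nearest in name, differed by -0.01, -0.08 and -0.15.

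Enzymes and proteins that loosen or remodel the wall were followed as 2 further families. Among 14 expansins, 2 fell in tfl1-1, EXPB3 (-1.75) and EXPB1 (-1.61), and 0 passed in WT or elf3-7, where the block called EXPA9 in elf3-7 (-1.35, adjusted p = 0.0178). Among 10 xyloglucan endotransglucosylases, 3 fell and 1 rose in WT, 1 fell and 1 rose in elf3-7, and 1 fell in tfl1-1. XTH20 fell in WT (-1.35) and elf3-7 (-1.78), XTH19 and XTH21 fell in WT (-1.41 and -0.65), and XTH16 fell in tfl1-1 (-1.29). EXGT-A3 rose in WT (1.17) and elf3-7 (1.31). Under the block XTH16 passed in WT (-0.98, adjusted p = 0.00686) and XTH29 in elf3-7 (0.37, adjusted p = 0.0212). These calls turned on which arrays were kept. Without replicate A in any group, 0, 20 and 0 of all 22746 probe sets passed in WT, elf3-7 and tfl1-1, and without replicate B 8, 99 and 22 passed, so that 0 calls in the families and marker lists under either setting say nothing particular about them. Without replicate C, 2592, 914 and 4970 probe sets passed. In tfl1-1, 6 expansins, 5 TBL genes, 4 xyloglucan endotransglucosylases, 3 tubulins, 2 peroxidases, 2 subtilases and HRGP2 then passed as lower. In WT these were 2 expansins, 3 TBL genes, 5 xyloglucan endotransglucosylases, 1 tubulin, 1 peroxidase and 2 subtilases, and in elf3-7 2 TBL genes, 1 xyloglucan endotransglucosylase and 1 peroxidase.

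**Figure D5:**
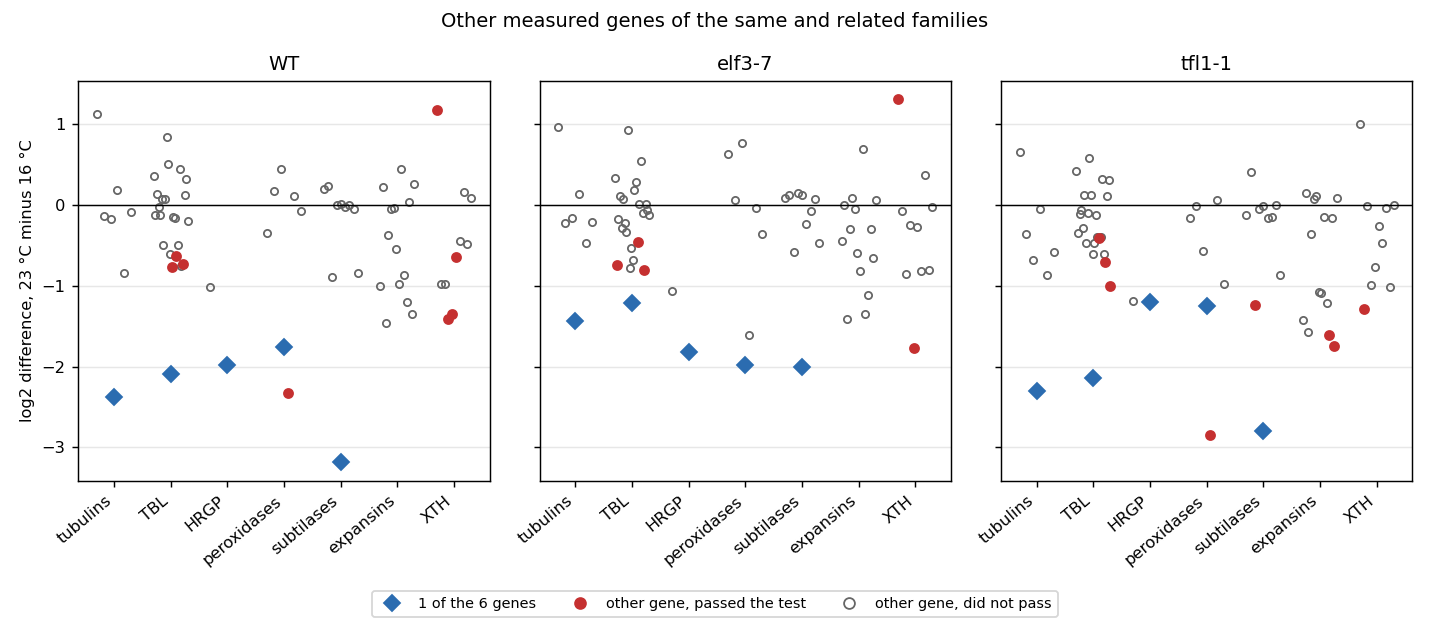
Log2 difference, 23 °C minus 16 °C (vertical axis), in WT, elf3-7 and tfl1-1, for the other measured genes in the symbol lists of 7 families (circles, filled where the limma test passed) and for the member of each family among the 6 genes (diamonds). HRGP stands for extensins and proline-rich proteins, TBL for trichome birefringence-like genes and XTH for xyloglucan endotransglucosylases, and the diamonds lie below most circles of their family.

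The genes most like each of the 6 over the 18 arrays were found among 13327 named genes by Pearson correlation, which here mostly measures the shared temperature difference. For HRGP1 they were AT2G47550 (r = 0.94), AT5G10130 (0.94) and HRGP2. For TBL39 they were the ATP-citrate lyase subunit ACLA-2 (0.99), the beta-glucosidase BGLU15 (0.98) and AT3G57010 (0.98). For TUB1 they were AT2G46140, also named LEA27 (0.98), AT2G35120 (0.97) and LCR68, the defensin PDF2.3 (0.97). Within groups these 9 genes gave r of 0.87 to 0.96, on the same arrays that picked them, so this is no separate check. For Prx37 the top genes were AT1G56680 (0.96), AT4G14090 (0.95) and AT2G21100 (0.94), and within groups they gave 0.70, 0.84 and 0.70. For SBT4.12 they were AT1G22440, AT3G22620 and AT4G24140 (0.97 to 0.98), and for ATLP-1 they were AT5G42720 (0.99), AT4G39860 (0.98) and the histone gene HTB1 (0.98). The 6 genes themselves were not searched, and the closest pair among them, TBL39 and TUB1, had r = 0.95.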

How the data were processed

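The authors deposited log2 expression values per probe set, which the submitters' processing notes credit to RMA. The sources used here give no version, probe annotation or genome build for it. The value table held 22810 probe sets, and 64 controls were left out of the tests. Names came from the platform annotation, with symbols and neighbouring loci from RefSeq (TAIR10.1). Of the probe sets tested, 13513 name 1 gene, 503 name several and 8730 are unnamed here. No sequences or coordinates were used.

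A linear model of 6 group means over 18 arrays was fitted in limma 3.58.1 (R 4.3.3), with empirical Bayes moderation. Tests were two-sided with Benjamini-Hochberg adjustment over 22746 probe sets for every comparison, and an adjusted p under 0.05 made a call. Replicate C was compared with A and B in the same model with a term for it. The fit was tested on simulated data. Python 3.11.15 with numpy 2.4.6 and pandas 2.3.3 made the summaries, and matplotlib 3.10.9 the plots.

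The 6 genes, the families and the marker lists were chosen with earlier results of these data known. All 6 genes are named. Other genes were named by a rule: the 3 most correlated with each, and up to 4 called genes per family, or up to 2 as values where none was called. Families were found by symbol patterns, from which PRXIIF, PEX4 and PRP39 were dropped. SBT4.13, TBL25, EXPA9, XTH16, XTH29 and the adjacent loci were named after their values were seen. No other thaumatin-like gene and no cellulose synthase was named here.

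What a replicate letter marks is not stated. The departures from the group mean of arrays with 1 letter correlated above 0.1 in every pair for the temperature comparison in WT (0.30 to 0.55) and elf3-7 (0.34 to 0.62), and for both mutants against WT at 23 °C (0.19 to 0.62). They did not in tfl1-1 (A -0.10) or against WT at 16 °C. Alternatives were 2 other scalings, a filter on dim probe sets, array weights, the replicate letter or replicate C as a block, and leaving out each letter or array. For families and markers the block and the letters left out were added after seeing the data.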

Additional observations from a re-analysis of the deposited data

How the results depend on the processing

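Of 171 counts of called genes and median differences recomputed under the alternatives, 8 changed. The count of called genes in tfl1-1 against WT rose from 0 to 1 (ATLP-1), for the mean of both temperatures and at 23 °C, with array weights and without the warm tfl1-1 array of replicate C. In each of these fits the calls over all probe sets rose as well. Leaving out arrays moved the WT median temperature difference between -2.34 and -1.81. Of 1254 values for single genes, 13 moved and 4 passed the test newly, all 4 for ATLP-1. No call could be lost or reversed, since the full fit called none of these genes in the tested comparisons. The temperature difference of SBT4.12 in tfl1-1 was -2.80 in the full fit, -3.80 without the warm replicate C array and -3.73 without replicate C altogether.

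With the replicate block, the differences are unchanged by construction and the count of called genes among the 6 stayed at 0 in all 6 comparisons of mutant with WT. The block raised the count of called probe sets from 1549 to 3157 in WT, from 1107 to 2920 in elf3-7 and from 2084 to 4012 in tfl1-1 for the temperature comparison, and from 78 to 265 and from 25 to 82 for elf3-7 and tfl1-1 in the mean of both temperatures. Array weights gave 3546, 4419 and 7100, then 698 and 3518. In tfl1-1, where the letters did not pair the arrays, the block called 3 tubulins as lower in place of 0, 4 expansins in place of 2, and the root marker EXPA18 (-1.57, limma adjusted p = 0.0353). Leaving out a letter or array gave 0 to 2592, 20 to 1612 and 0 to 4970, then 5 to 446 and 0 to 1310.

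The filter on dim probe sets left out HRGP1 and Prx37. Each of the 6 genes has 1 probe set, and no other probe set was tried. Precision is limited by 3 arrays per group: the 95% interval of SBT4.12 in elf3-7 minus WT at 23 °C ran from -0.46 to 2.35.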
